A study of Mus musculus with 6 samples.

Results

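Transcripts of 10 enzymes that build triglyceride, or that supply its glycerol backbone, were followed in brown fat cells of mice labelled wild type and mice labelled as knockouts of Phospho1. The enzymes were Gpam, Gpat3, Agpat2, Lpin1, Lpin2, Dgat1, Dgat2, Gpd1, Pck1 and Gk (also named Gyk). They were chosen by name, and all 10 were found among the 37620 Ensembl genes of the count files. Phospho1 is a phosphatase of phosphocholine and phosphoethanolamine. Both groups had a C57BL/6 background and were 6 weeks old, and each had 3 libraries, each made from a pool of 3 mice. The cells were mature adipocytes that floated after collagenase digestion of minced brown fat and a short spin. The labels do not say how the Phospho1 allele was made, and neither group is labelled with any other allele or a treatment.

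Triglyceride is made by adding fatty acids stepwise to glycerol 3-phosphate. Glycerol-3-phosphate acyltransferases (Gpam, Gpat3) add the first, acylglycerolphosphate acyltransferases (Agpat2) the next, lipins (Lpin1, Lpin2) remove the phosphate, and diacylglycerol acyltransferases (Dgat1, Dgat2) add the last. Glycerol 3-phosphate comes from free glycerol through glycerol kinase (Gk), or through Gpd1 from dihydroxyacetone phosphate. The latter is made from glucose, or from pyruvate and amino acids by glyceroneogenesis, so Gpd1 serves both of these routes. The key enzyme of glyceroneogenesis in adipocytes is the phosphoenolpyruvate carboxykinase Pck1. White adipocytes are known for low glycerol kinase and brown adipocytes for much more of it.

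Library totals ranged from 10576800 to 14239307 counts, of which genes of the mitochondrial genome took 39.1% to 56.5%. Phospho1 held 5 to 13 counts in the wild-type libraries and 15 to 18 in those labelled knockout, so its counts did not fall, and every direction here is that of the libraries labelled knockout. All 6 adipocyte and all 6 brown adipocyte markers had counts in every library. The summed level of 5 white adipocyte markers was 409.7 to 515 CPM (counts scaled to a common library size) in wild type and 176 to 304 in the knockout-labelled libraries, and that of the 6 brown markers 4089 to 6533 and 6990 to 8864. Macrophage markers (6) summed to 98.1 to 195 and 222 to 489 CPM, erythroid markers (5) to 366 to 1378 and 1209.7 to 3505, and muscle markers (9) to at most 107 CPM except in wild type 3, with 1215. Lymphocyte markers (4) summed to 1.17 to 1.86 and 2.65 to 3.61 CPM, mural cell markers (6) to 808 to 1261 and 441 to 881, and liver markers (4, with Ttr at 0 in every library) to 0.614 to 1.08 and 0 to 0.0885. Endothelial (8) and stromal (6) sums overlapped. Single markers did not always go with their sum. In the edgeR test described below, 2 mural markers were called higher and 0 lower, and 1 brown marker lower and 0 higher. Called lower were also 2 white adipocyte and 2 endothelial markers, and called higher 1 macrophage and 2 erythroid markers. Over all tested genes 7.52% were called lower and 1.63% higher. In the knockout-labelled libraries long transcripts ran lower. The slope of each gene's log2 level, relative to its mean over the 6 libraries, on log2 transcript length was 0.31, -0.026 and 0.30 in wild type 1, 2 and 3 and -0.24, -0.093 and -0.25 in knockout 1, 2 and 3. The part of these differences in the results below was not tested unless a value is given.

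Of the 10 enzymes, Lpin1 was lower in the knockout-labelled libraries and the other 9 did not pass the test. The test was edgeR's quasi-likelihood test with Benjamini-Hochberg adjustment over all genes and a threshold of 0.05. Across the 12068 tested genes, 7.52% were called lower and 1.63% higher, so 1 lower call among 10 is near that background. At an unadjusted p under 0.05, 4 of the 10 were lower, against 18.6% of all tested genes, and 0 were higher, against 12.3%. Levels of Lpin1, Lpin2 and Pck1 did not overlap between the groups and were lower in the knockout-labelled libraries, against 19.6% of all tested genes. Agpat2 did not overlap and was higher, against 15.8%. The median log2 fold change of the 10 was -0.38, and that of all tested genes 0.03. The level of an adipocyte enzyme in such libraries can be lower because fewer adipocytes or less RNA per adipocyte went in, and these cannot be told apart. The summed level of the 6 adipocyte markers was 15568 to 22065 CPM in wild type and 16342 to 23877 in the knockout-labelled libraries.

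**Figure D1:**
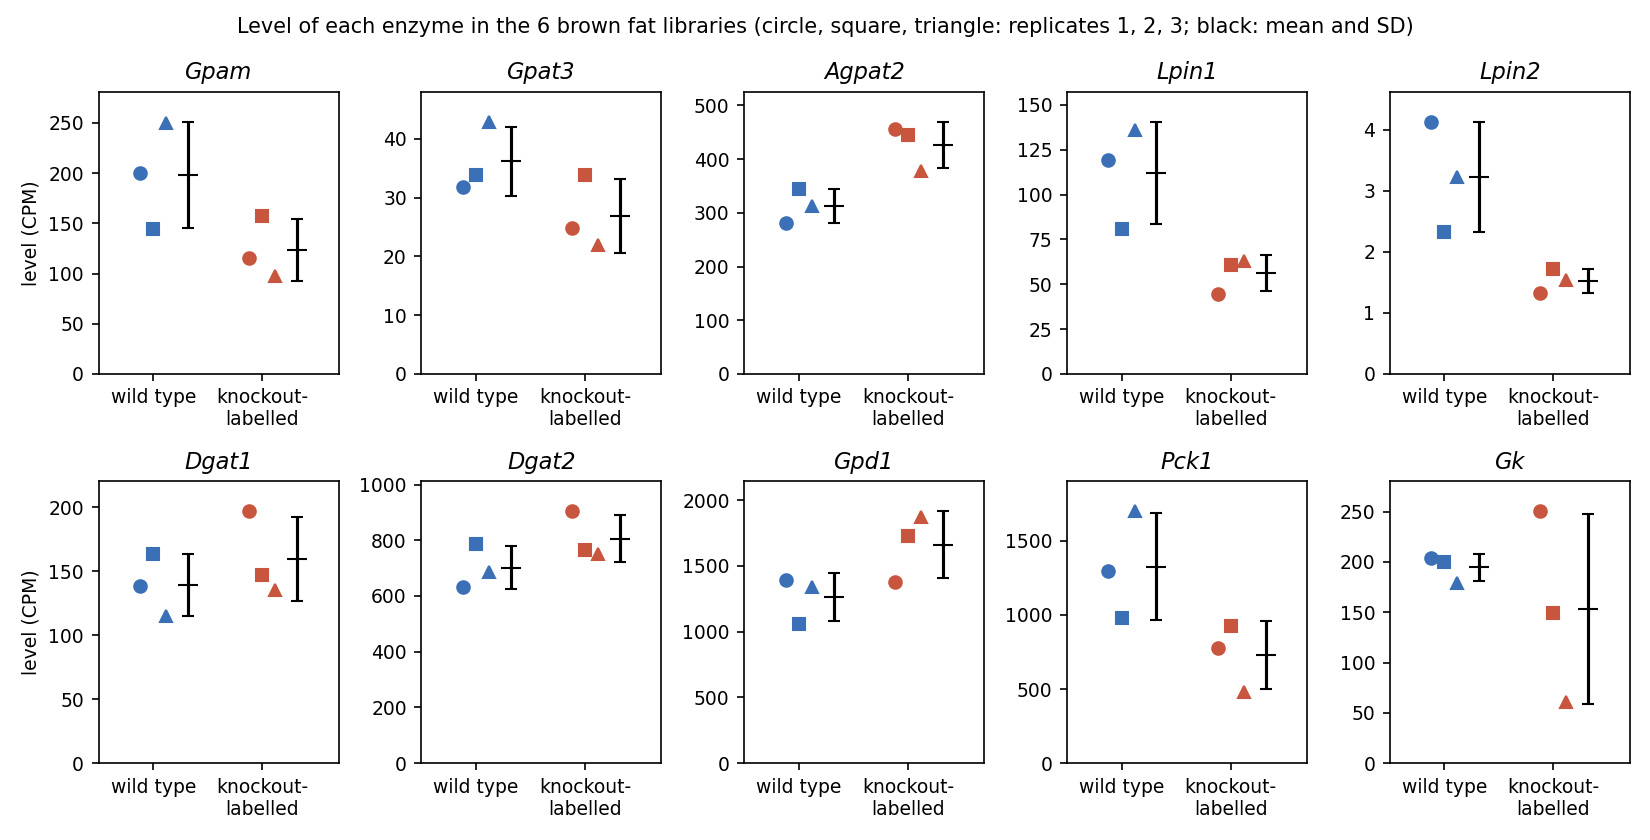
Level in CPM (vertical axes starting at 0) for each of the 10 enzymes in the 3 wild-type and 3 knockout-labelled libraries, with each group's mean and SD in black. Lpin1, Lpin2 and Pck1 lie lower in every knockout-labelled library than in any wild-type library, Agpat2 lies higher, and Gk is spread from 61.3 to 250.2 CPM within the knockout-labelled group.

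Pck1 makes phosphoenolpyruvate from oxaloacetate, the step that commits carbon to glyceroneogenesis. Its level was 1297, 980.2 and 1698 CPM in wild type 1, 2 and 3 and 779.8, 928 and 477 CPM in knockout 1, 2 and 3. Every knockout-labelled library was below the lowest wild-type library, although wild type 2 and knockout 2 lay close together. The means were 1325 ± 359.6 and 728 ± 229.8 CPM (SD, n = 3 each). With a log2 fold change of -0.86 and an SE of 0.30, Pck1 did not pass in edgeR (adjusted p = 0.084). DESeq2 called it lower (log2 fold change -0.87, adjusted p = 0.038), as it did 11.5% of the genes to which it gave an adjusted p. Without knockout 3 the edgeR value was -0.64 (adjusted p = 0.228), and without wild type 2 it was -1.04 (adjusted p = 0.047).

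The Pck1 promoter is among the best studied of any metabolic gene, and it is shown because Pck1 is the glyceroneogenic member whose groups did not overlap. The 250 bases before its start were taken from RefSeq on GRCm38.p6, plus strand, chr2:173152823-173153072. Capitals mark the letters ACGTCA, the core of a cAMP response element, and TATATA.
Pck1: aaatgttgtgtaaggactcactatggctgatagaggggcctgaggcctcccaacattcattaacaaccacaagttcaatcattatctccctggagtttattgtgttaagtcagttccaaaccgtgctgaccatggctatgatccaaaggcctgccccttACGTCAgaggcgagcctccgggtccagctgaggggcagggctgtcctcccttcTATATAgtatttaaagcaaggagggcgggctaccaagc
ACGTCA begins 91 bases and TATATA 38 bases before the start. On either strand, ACGTCA stands in 6.47% and TATATA in 5.25% of all 32851 RefSeq promoter windows of this length. Among the 7 members with a promoter entry, ACGTCA was also in a window of Gpam and of Gpat3. These matches describe the sequence only.

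Gpd1, which reduces dihydroxyacetone phosphate to glycerol 3-phosphate, went the other way from Pck1 without passing the test. It had 1391, 1056 and 1343 CPM in wild type and 1379, 1725 and 1875 CPM in the knockout-labelled libraries. Knockout 1 lay within the wild-type range and knockouts 2 and 3 above it. The log2 fold change was 0.39 (SE 0.24, edgeR adjusted p = 0.279).

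Gk, which phosphorylates glycerol, was the member with the widest spread. In wild type it held 204, 200.1 and 179 CPM, and in the knockout-labelled libraries 250.2, 149 and 61.3 CPM. Knockout 1 was above and knockouts 2 and 3 below every wild-type library. The highest and lowest wild-type libraries differed 1.14-fold and the knockout-labelled ones 4.08-fold. Such a knockout range or a wider one was found in 3.79% of tested genes, and together with a wild-type range no wider than that of Gk in 0.157%. Both limits were taken from Gk itself, the member with the widest spread, so these shares only describe it and are not p-values. Its log2 fold change was -0.34 (SE 0.39, edgeR adjusted p = 0.561), 0.02 without knockout 3 (adjusted p = 0.971) and -0.88 without knockout 1 (adjusted p = 0.101). With all libraries kept and length and GC offsets it was above 0, at 0.22 on the longest and 0.45 on the median transcript.

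Gpam, the mitochondrial glycerol-3-phosphate acyltransferase, had 200.2, 144 and 249.6 CPM in wild type and 116, 158 and 97.4 CPM in the knockout-labelled libraries. The groups overlapped through wild type 2 and knockout 2. Its log2 fold change was -0.68 (SE 0.27, edgeR adjusted p = 0.119). Gpat3, an enzyme of the endoplasmic reticulum for the same step, had 31.8, 33.8 and 42.8 CPM in wild type and 24.8, 33.9 and 21.9 CPM (21.85) in the knockout-labelled libraries, and its log2 fold change was -0.43 with SE 0.25 (adjusted p = 0.264). Knockout 2 again lay within the wild-type range.

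Agpat2, the acyltransferase whose loss causes congenital lipodystrophy in people and mice, was the one enzyme of the chain whose groups were apart with the knockout-labelled libraries higher. Its level was 281, 345 and 312 CPM in wild type and 456, 444.5 and 378 CPM in the knockout-labelled libraries. It did not pass in edgeR, with log2 fold change 0.45, SE 0.22 and adjusted p = 0.189. With length and GC offsets it was at -0.13 on the longest and 0.09 on the median transcript.

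The lipins convert phosphatidate to diacylglycerol, and Lpin1, the main adipocyte form, also acts in the nucleus as a transcriptional coactivator. Lpin1 had 119.5, 80.7 and 136 CPM in wild type and 44.8, 60.9 and 62.8 CPM in the knockout-labelled libraries. The group means were 112 ± 28.3 and 56.2 ± 9.9 CPM (SD, n = 3 each). Lpin1 fell, with log2 fold change -0.996, SE 0.26 and edgeR adjusted p = 0.039, and was lower in 3 of 3 knockout-labelled libraries than in any wild-type library. The call held without wild type 2 (adjusted p = 0.020) and was lost without wild type 1 or 3 or knockout 1, 2 or 3 (adjusted p = 0.177, 0.116, 0.071, 0.079 and 0.093). When each library's trend with transcript length and GC was removed by offsets, Lpin1 was at -0.59 (SE 0.18, adjusted p = 0.102).

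Lpin2, the form known best from liver, was low in these cells. It held 73, 34 and 36 counts in wild type and 15, 21 and 15 in the knockout-labelled libraries, or 4.12, 2.32 and 3.23 CPM against 1.33, 1.72 and 1.53. All knockout-labelled libraries were again below all wild-type libraries, at counts low enough for counting error to matter. It did not pass in edgeR, with log2 fold change -1.07, SE 0.36 and adjusted p = 0.079, and it passed without wild type 2 (-1.26, adjusted p = 0.044) and with total counts in place of TMM scaling (-1.36, adjusted p = 0.046).

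The promoters of both lipins are shown because these paralogues had nearly equal fold changes. Each is the 250 bases before a start from RefSeq on GRCm38.p6, Lpin1 at chr12:16610967-16611216 on the minus strand and Lpin2 at chr17:71183282-71183531 on the plus strand, the first of its 3 entries. Capitals mark AGGTCA, a nuclear receptor core, AGAACA or its reverse TGTTCT, a glucocorticoid receptor core, and CACGTG, an E-box.
Lpin1: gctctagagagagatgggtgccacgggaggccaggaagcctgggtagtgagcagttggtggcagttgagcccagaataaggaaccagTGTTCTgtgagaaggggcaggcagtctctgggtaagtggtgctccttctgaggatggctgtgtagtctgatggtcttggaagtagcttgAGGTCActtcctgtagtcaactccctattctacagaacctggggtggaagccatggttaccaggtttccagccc
Lpin2: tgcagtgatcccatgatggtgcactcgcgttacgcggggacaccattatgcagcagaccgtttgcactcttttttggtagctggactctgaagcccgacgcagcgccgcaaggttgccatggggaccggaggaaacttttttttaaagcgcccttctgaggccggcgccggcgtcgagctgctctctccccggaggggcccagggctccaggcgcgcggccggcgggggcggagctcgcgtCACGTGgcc
The Lpin1 window held TGTTCT 163 bases and AGGTCA 74 bases before the start, and the Lpin2 window held CACGTG 9 bases before it. TGTTCT was also in another of the Lpin2 windows, 203 bases before its start. These letters were not particular to the lipins. The Gk window held TGTTCT 128 bases and CACGTG 58 bases before its start, and a Gpam window held AGGTCA 196 bases before its start. The matches describe the sequence only. Counting both strands, AGAACA stands in 16.1%, AGGTCA in 14.0% and CACGTG in 6.02% of all windows. GC content was 54.8% in the Lpin1 window and 65.2% in the Lpin2 window.

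Dgat1 and Dgat2 catalyse the last step and are unrelated in sequence. Dgat1 had 138, 163 and 115 CPM in wild type and 197, 147 and 135 CPM in the knockout-labelled libraries. Dgat2 had 634, 786 and 686 CPM and 903, 765 and 749 CPM. Both sets of values overlapped, with knockout 1 the highest library for each gene. The log2 fold changes were 0.20 (SE 0.24, edgeR adjusted p = 0.585) for Dgat1 and 0.20 (SE 0.22, adjusted p = 0.552) for Dgat2, and both were below 0 with total counts in place of TMM scaling (-0.052 and -0.047) and with the offsets (-0.26 and -0.17).

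Ratios of 2 enzymes within a library do not depend on how libraries are scaled, but they still carry the library's trend with transcript length and GC. Over 6 such ratios, 3 libraries against 3 cannot give an exact two-sided permutation p below 0.1. The ratio of Pck1 to Gpd1 counts was 0.93, 0.93 and 1.26 in wild type and 0.57, 0.54 and 0.25 in the knockout-labelled libraries, and it was the one ratio without overlap. On the log2 scale the means were 0.04 ± 0.26 and -1.23 ± 0.65 (SD, n = 3 each), a difference of -1.27 (exact permutation p = 0.1, adjusted over the 6 ratios 0.6), and without knockout 3 it was -0.90. The ratio of Gk to Gpd1 was 0.15, 0.19 and 0.13 in wild type and 0.18, 0.087 and 0.033 in the knockout-labelled libraries, so knockout 1 lay within the wild-type range. The log2 difference was -0.95 (exact permutation p = 0.3). The longest transcripts of Gk and Gpd1 have 4340 and 2861 bases. With length and GC offsets on these the edgeR log2 fold changes were 0.22 for Gk and 0.15 for Gpd1.

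The ratios of the paralogue pairs overlapped between the groups. Dgat2 had 4.57 to 5.95 counts per Dgat1 count in wild type and 4.59 to 5.54 in the knockout-labelled libraries, a log2 difference of 0.0055 (exact permutation p = 0.9). Lpin1 had 29.0 to 42.1 counts per Lpin2 count and 33.7 to 41.0, a log2 difference of 0.04 (exact permutation p = 0.9). Gpam had 4.27 to 6.29 counts per Gpat3 count and 4.46 to 4.67, a log2 difference of -0.23 (exact permutation p = 0.4), and Gk to Pck1 differed by 0.32 (exact permutation p = 0.6).

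**Figure D2:**
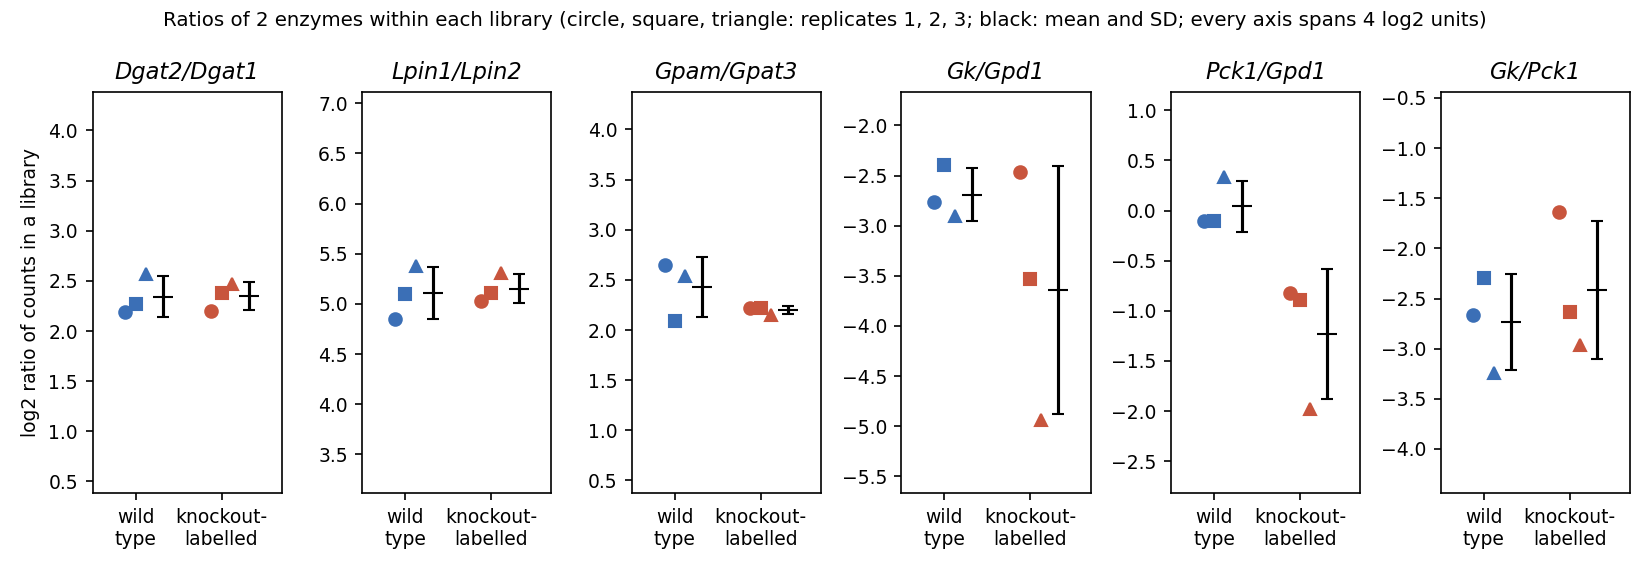
Log2 ratio of the counts of 2 enzymes (0.5 added to each count) within each library, with the group means and SD in black; each vertical axis spans 4 log2 units. Dgat2/Dgat1 and Lpin1/Lpin2 are level across the groups, Pck1/Gpd1 is lower in all 3 knockout-labelled libraries, and Gk/Gpd1 spreads from -2.46 to -4.93 among them.

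The members with long transcripts tended to have lower fold changes, and Pck1 lay apart. Gpam, Lpin2, Lpin1 and Gk have the longest annotated transcripts (6172, 5640, 5581 and 4340 bases) and had log2 fold changes below 0. Agpat2, Dgat1, Dgat2 and Gpd1 are shorter (1489, 1888, 2262 and 2861 bases) and had values above 0. Tested genes were ranked by longest transcript and split into 10 equal classes. The median log2 fold change in the class of Gpam and both lipins was -0.61, in that of Agpat2 0.46, and in that of Dgat1 and Dgat2 0.29. Of the 10 members, 7 lay between the quartiles of their own length class and 3 lay below, namely Lpin2, Gpat3 and Pck1. Lpin2 (-1.07) was just under its lower quartile of -1.05, and Gpat3 (-0.43) under -0.31. Pck1, at 2728 bases, was at -1.06 relative to the median of its class (0.20), the largest such distance of the 10, and its lower quartile was -0.18. The distance for Lpin1 was -0.39, within the quartiles.

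**Figure D3:**
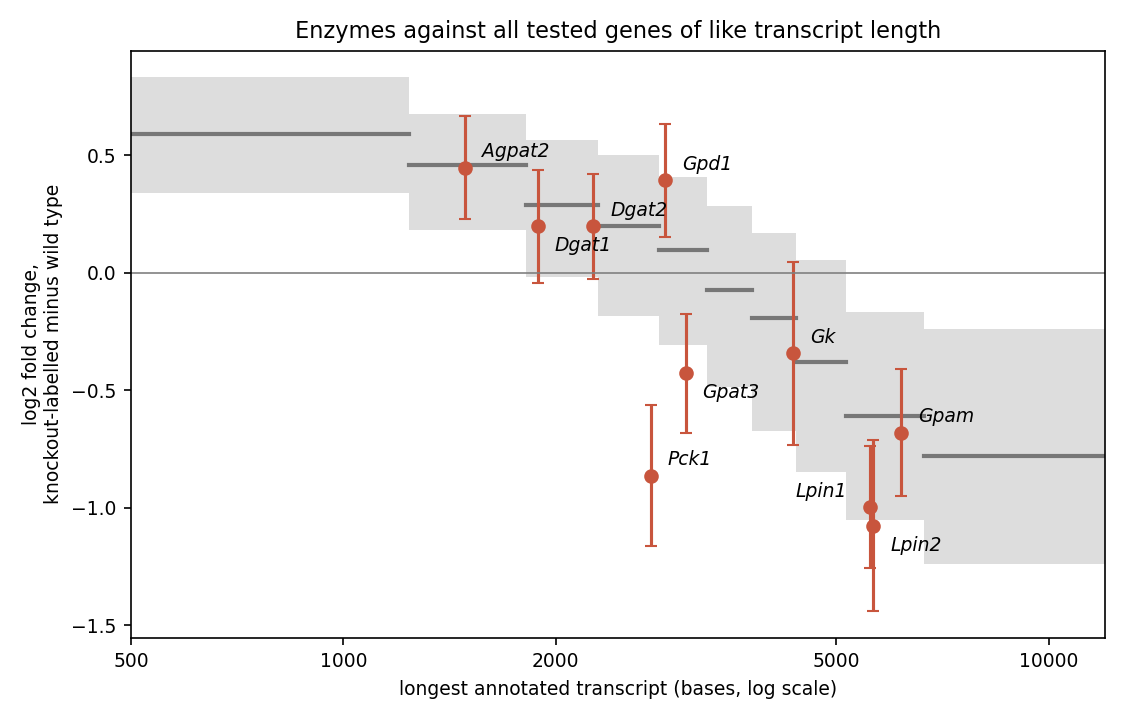
Log2 fold change (knockout-labelled minus wild type; bars are SE) of each enzyme against the length of its longest annotated transcript on a log scale. Dark lines are the medians and grey boxes the quartiles of all tested genes in 10 length classes; Pck1 lies well below the box of its class, while Gpam, Lpin1, Gk, Gpd1, Agpat2, Dgat1 and Dgat2 lie within theirs.

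With the length and GC offsets on the longest transcript 0 of the 10 enzymes passed in edgeR, and of all tested genes 0.00829% passed. At an unadjusted p under 0.05, Lpin1 and Pck1 (2 of 10) were lower, against 11.1% of all tested genes. Pck1 was then at -1.06 on the log2 scale with SE 0.29 (adjusted p = 0.081), Lpin2 at -0.63 (SE 0.29, adjusted p = 0.229) and Lpin1 at -0.59. With offsets on the median transcript Lpin2 was at -1.16 (adjusted p = 0.079) and Pck1 at -0.92 (adjusted p = 0.083), so the order of these enzymes depends on the length used. With the longest transcript again, Gpat3 was at -0.39, Dgat1 at -0.26, Dgat2 at -0.17, Gpam at -0.15 and Agpat2 at -0.13. On that length Gpd1 (0.15) and Gk (0.22) were above 0. Agpat2 was at 0.09 with the median transcript. DESeq2 and limma-voom without offsets called 2 and 1 of the 10 lower.

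**Figure D4:**
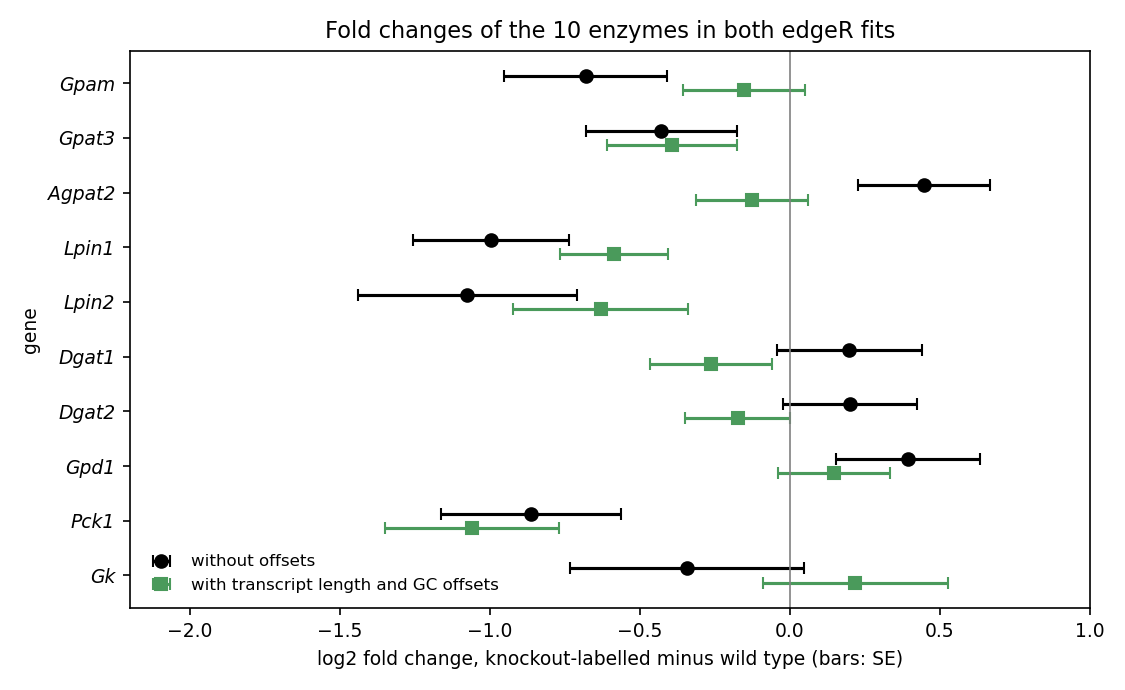
Log2 fold change (knockout-labelled minus wild type) of the 10 enzymes in edgeR without offsets (black) and with length and GC offsets on the longest transcript (green); bars are SE. Pck1 moves from -0.86 to -1.06, Lpin1 from -0.996 to -0.59, and Agpat2, Dgat1 and Dgat2 cross from above 0 to below it.

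Per length of transcript, Pck1, Gpd1, Dgat2 and Agpat2 were the abundant members. Levels per length are given as TPM, here counts per kilobase of the longest transcript, scaled to the same sum over nuclear genes in each library. In wild type the order was Pck1 (2196 ± 768), Gpd1 (1989 ± 503), Dgat2 (1369 ± 41.4), Agpat2 (928 ± 45.3), Dgat1 (324 ± 36.4), Gk (199.5 ± 26.5), Gpam (145 ± 50.5), Lpin1 (91.0 ± 31.1), Gpat3 (52.7 ± 11.6) and Lpin2 (2.60 ± 0.98) (SD, n = 3). Among neighbours in this order, the ranges of Pck1 and Gpd1 overlapped, as did those of Gk and Gpam, Gpam and Lpin1, and Lpin1 and Gpat3; those of Gpd1 and Dgat2 did not, though the lowest Gpd1 library (1416.5) was just above the highest Dgat2 library (1414). In the knockout-labelled libraries Gpd1 (2049 ± 372) came first and Pck1 (953 ± 359.6) ranked below Dgat2 (1253 ± 123) and Agpat2 (1011 ± 148), the last 2 pairs of neighbours overlapping, and the other members kept their order. This shift in the rank of Pck1 was not seen with the median transcript length. There Dgat2 (1996.5 and 1975), Gpd1 (1705 and 1912) and Pck1 (1402 and 661) came in that order in both groups. Agpat2 followed, at 551 in wild type. In the knockout-labelled libraries it came close to Pck1 (649 ± 85.5 against 661 ± 240). The 10 enzymes together took 0.71% to 0.96% of nuclear counts in wild type and 0.71% to 0.86% in the knockout-labelled libraries.

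Other acyltransferases and the monoacylglycerol route showed 0 calls among 8 tested genes of 10 in edgeR (1 lower and 1 higher at an unadjusted p under 0.05, against 18.6% and 12.3% of all tested genes; median log2 fold change 0.10). Gpat2 and Mogat2, with at most 6 counts in a library, were below the filter. Lclat1, a lysocardiolipin acyltransferase, went from 16.5 ± 4.0 to 8.96 ± 1.77 CPM (log2 fold change -0.88, adjusted p = 0.067), and it passed without wild type 2 (-1.04, adjusted p = 0.039), with total counts (-1.12, adjusted p = 0.037) and with DESeq2 (-0.88, adjusted p = 0.040). Agpat5, a mitochondrial acyltransferase, was at 0.58 (adjusted p = 0.129). With length and GC offsets it was at 1.51 on the longest transcript (adjusted p = 0.062) and passed at 1.55 on the median one (adjusted p = 0.049). Agpat4 was at 0.85 and Agpat3 at 0.35. Gpat4, the other main glycerol-3-phosphate acyltransferase of the endoplasmic reticulum, was present at 231 to 308 CPM in every library.

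Genes of glycerol transport, glycerol 3-phosphate, the steps from pyruvate to triose phosphate and aldolase gave 0 calls in edgeR among 15 tested of 18. At an unadjusted p under 0.05, 2 were lower and 3 higher, against the same 18.6% and 12.3%. Their median log2 fold change was 0.32, and 0.098 with length and GC offsets on the longest transcript. The median takes in Gapdh, Pgk1, Pgam1 and Eno1, whose levels are uncertain, as described under the other observations. Gk2, Aqp3 and Aqp9 held at most 4 counts in a library and were below the filter. Gk5, a relative of glycerol kinase, went from 5.27 ± 0.92 to 2.35 ± 1.16 CPM (log2 fold change -1.15, edgeR adjusted p = 0.075; -1.56 without knockout 1, adjusted p = 0.028), and Pgp, which splits glycerol 3-phosphate, from 10.9 ± 1.6 to 18.5 ± 3.8 CPM (0.75, adjusted p = 0.083). Mdh2, the mitochondrial malate dehydrogenase, was at 0.61 (adjusted p = 0.104; 0.78 without wild type 2, adjusted p = 0.042) and the aldolase Aldoa at 0.57 (adjusted p = 0.119). Pck2, the mitochondrial form of the carboxykinase, was at 8.04 to 14.4 CPM over the 6 libraries.

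Among 12 regulators known to act on these enzymes 3 fell and 0 rose, against 7.52% and 1.63% of all tested genes (median log2 fold change -0.25). Any link of these regulators to the levels of the enzymes was not tested. The glucocorticoid receptor Nr3c1 had 164, 103 and 122 CPM in wild type and 49.4, 65.8 and 36.5 CPM in the knockout-labelled libraries. Its log2 fold change was -1.36 with SE 0.28 (edgeR adjusted p = 0.020). Creb1, the cAMP-responsive factor, was at -1.28 (adjusted p = 0.029), and Ppargc1a, a coactivator that works with Lpin1, at -1.07 (adjusted p = 0.034). Without 1 library at a time Nr3c1 passed in 4 of 6 fits, Creb1 in 3 and Ppargc1a in 1, that without wild type 2. Nr3c1 was lost without wild type 1 or knockout 3 (adjusted p = 0.126 and 0.079), and Creb1 without wild type 1 or knockout 2 or 3 (adjusted p = 0.176, 0.072 and 0.108). For Ppargc1a the adjusted p reached 0.185, without wild type 1. Cebpb was at 0.79 (adjusted p = 0.065), and passed with DESeq2 (0.78, adjusted p = 0.035) and without knockout 1 (0.96, adjusted p = 0.031). With the offsets on the longest transcript Nr3c1, Creb1 and Ppargc1a were at -0.53, -0.20 and -0.17 (edgeR adjusted p = 0.1496, 0.612 and 0.659). On the median transcript they were at -0.89, -0.80 and -0.34 (edgeR adjusted p = 0.063, 0.081 and 0.393). None of them passed on either length, and the size of the difference depends on the length used. Pparg itself, the master regulator of adipocytes, was at -0.15 (adjusted p = 0.653).

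In the GRCm38 annotation 4 members share exonic bases with other genes, and as the strand setting of the counting is not known, reads from those bases cannot be told apart. For Gpat3 30.0% of exonic bases also lie in 4930458D05Rik on the opposite strand, which held 17 to 32 counts, and 7.40% in another gene on the same strand, and for Gpd1 12.97% lie in Gm16537, which held 7 to 27. Agpat2 shares 3.00% (64 bases) with Egfl7 on the opposite strand. Egfl7 held 1184, 1292 and 587 counts in wild type and 1936, 1139 and 919 in the knockout-labelled libraries. Gk shares 1.08% with Gm14764, which held 0 counts in every library. Apart from these overlaps, only Lpin2 had a match of at least 90% identity over 100 or more bases to transcripts of another gene, the longest being 102 bases to Zcchc4.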

How the data were processed

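RNA was sequenced from 6 libraries of mature brown fat cells, 3 per group. The authors deposited 1 file per library of whole-number counts per Ensembl gene; the headers name only the gene identifier and the library, and the unit was taken from the values. Per the submitters' processing notes, STAR 2.5.4b and mouse build mm9 were used. The counter, strand setting and annotation release: not given in the sources used here. Identifiers were matched to symbols and transcript lengths in GENCODE M21 on GRCm38 (32897 of 37620; the rest held 0.178% of counts).

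Counts were tested in R 4.3.3 with edgeR 4.0.16: filterByExpr (minimum count 10, minimum total 15), TMM scaling, and a two-sided robust quasi-likelihood test of knockout-labelled against wild type over 12068 genes, with Benjamini-Hochberg adjustment. Each SE is the log2 fold change divided by the square root of F. CPM levels use TMM-scaled library sizes. Replicates are pools of mice, so p-values measure the spread between pools. Offsets were fitted per library as smooth terms (basis size 6, mgcv 1.9.3) of log2 ratio on GC and log2 longest-transcript length. Sequence copies were sought with BLAST 2.17.0. DESeq2 1.42.0 and limma 3.58.1 were alternatives, with other scalings, filters, a replicate block and each library left out. The code was tested on simulated counts. Members, lists and tests were chosen with earlier results of these data known. Named genes are the 10 members, Phospho1 and, per list, genes past the threshold and up to 4 of the smallest p. Gpat2, Gpat4, Mogat2, Gk2, Aqp3, Aqp9, Pck2, Pparg, Gapdh, Tpi1, Pgk1, Pgam1 and Eno1 were added with their values known.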

Additional observations from a re-analysis of the deposited data

How the results depend on the processing

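Direction held under all 19 alternatives for Gpam, Gpat3, Lpin1, Lpin2, Gpd1 and Pck1. Lpin1 passed in 10 of them (log2 fold change from -1.27 to -0.59), Pck1 in 3 (-1.10 to -0.64) and Lpin2 in 2 (-1.36 to -0.62). The number of members called lower, 1 as reported, was 0 with upper-quartile scaling, 2 with total counts only, with no filter on low counts and with DESeq2, and 0 with offsets on the longest or the median transcript. Agpat2 turned to -0.13 with offsets on the longest transcript and was at 0.09 with the median. Dgat1 and Dgat2 turned to -0.052 and -0.047 with total counts, to -0.26 and -0.17 with offsets on the longest transcript, and to -0.17 and -0.18 with the median transcript. Gk turned to 0.22 and 0.45 in the latter fits, and ranged from -0.88 to 0.018 without each library in turn, the latter without knockout 3. The cause of these shifts was not tested.

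Among genes of the 3 lists, 0 higher and 3 lower became 0 lower with offsets on either length, and 1 was higher with DESeq2 (Cebpb) and 1 with the median transcript (Agpat5). Over all genes, 197 higher and 908 lower became 29 and 1389 with total counts, 1 and 0 with offsets on the longest transcript, and 81 and 142 with the median transcript; DESeq2 called 493 higher. The all-gene median shifted from 0.03 to -0.23 with total counts. Leaving out 1 library at a time gave 0 to 3 members lower and 0 higher, 0 to 1 list genes higher and 0 to 4 lower, and 0 to 688 higher and 0 to 1383 lower over all genes. Without each library the log2 ratio differences ranged from -0.070 to 0.12 for Dgat2/Dgat1, from -0.086 to 0.18 for Lpin1/Lpin2, from -0.40 to -0.12 for Gpam/Gpat3, from -1.54 to -0.31 for Gk/Gpd1, from -1.48 to -0.90 for Pck1/Gpd1 and from -0.064 to 0.60 for Gk/Pck1. With 5 added to each count Lpin1/Lpin2 turned to -0.14. With the median transcript length Dgat2 headed the levels per length in both groups, followed by Gpd1 and then Pck1.

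Deviations of same-numbered libraries from their group means had correlations of 0.14, -0.53 and 0.03. With 3 libraries per group these values cannot settle whether the numbers pair the libraries. With the replicate number as a block, 1 member was lower and 0 higher, 3 list genes were lower, and 223 genes were higher and 976 lower. With the block and the offsets, 0 members, 0 list genes and 0 genes were called, with Agpat2, Dgat1, Dgat2 and Gk at -0.14, -0.28, -0.18 and 0.11 (0.105).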

Other observations

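Glycolytic enzymes that also run in reverse in glyceroneogenesis had unequal counts. Gapdh held 10 to 23 counts, Pgk1 22 to 119, Pgam1 77 to 269 and Eno1 154 to 731, while Tpi1, in the same chain, held 1863 to 3351. Aldoa, a glycolytic enzyme that this route does not use, held 7773 to 12033. Gapdh, Pgk1, Pgam1 and Eno1 are known for near-identical pseudogene copies, and how reads with several matches were counted is not given in the sources used here, so their levels are uncertain and were not set against those of the members.

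Knockout 3 was the lowest of its group for 7 of the 10 enzymes and wild type 2 the lowest of its group for 5. Knockout 3 had the highest share of mitochondrial genome counts (56.5%) and the lowest length slope (-0.25). A slope nearly as low (-0.24) was found in knockout 1, the lowest of its group for 3 enzymes. Knockout 2 had a mitochondrial share of 54.3% and was the lowest for 0. Wild type 2 had the lowest length slope of the wild-type libraries (-0.026). Any link of these traits to the levels was not tested.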
